A study of Sus scrofa with 8 samples.

Results

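The T cell receptor complex and its coreceptors were examined in the middle jejunum of weaned and suckling piglets. Of the 10 listed genes, 7 had a probe on the array whose RefSeq accession maps to the listed symbol: the receptor chains CD3D, CD3E, CD3G and CD247, the coreceptors CD4 and CD8A, and the adhesion receptor CD2. CD5, CD8B and PRF1 had no probe named by a RefSeq accession here and were not analysed. The 7 genes stand among 3216 genes with a symbol and a probe. Each gene is represented by 1 probe, the one with the highest mean log2 processed signal over all arrays. 5 of the 7 genes had 2 probes, and CD2 and CD3E had 1.

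The T cell receptor recognises a peptide held by an MHC molecule but has almost no signalling tail of its own. The CD3 gamma, delta and epsilon chains and the CD247 (zeta) chain pair with it and carry the tyrosine motifs that the kinase LCK phosphorylates when the receptor is engaged. CD4 binds MHC class II and CD8 binds MHC class I, and both bring LCK to the complex. In the small intestine most T cells lie in the lamina propria or between the epithelial cells, and many of the intraepithelial ones carry CD8. In pigs, T cells with both CD4 and CD8 alpha are known, and CD8 alpha is also found on natural killer cells.

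The study set 4 weaned piglets against 4 suckling piglets, all Duroc × Landrace and 25 days old. The weaned piglets had left the sow at 21 days, ate a basal feed (20.50% crude protein, with a digestible energy of 14.48 MJ/kg), and were sampled 4 days later, whereas the suckling piglets stayed with the sow. Each group took 1 piglet near the average weight from each of 4 litters, and each 1-colour Cy3 array held the RNA of 1 piglet from a 2 cm jejunal segment, for which the labels describe no separation of layers. In such whole tissue, fewer T cells and less RNA per T cell cannot be told apart. All weaned arrays lay on one slide and all suckling arrays on the other, and for every difference given here the slide cannot be told apart from weaning. Suckling replicate 1 was the dimmest array, with a 75th percentile of 245 intensity units beside 317 to 395 elsewhere, and per array 67.6% to 71.0% of probes stood well above background.

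Values are given as log2 signal relative to the array's own 75th percentile, so 0 marks that percentile and a difference of 1 is a doubling of the signal. Probes differ in how well they bind, so a gene is compared between arrays and its level is not set against that of another gene. Where signals are summed over a list, the share of each gene depends on how well its probe binds. All 7 genes were well above background on all 8 arrays, so the defining chains of T cells were measured in every piglet. Differences are weaned minus suckling, tested with limma over all 30554 tested probes, and the threshold was a Benjamini-Hochberg adjusted p under 0.05. No label ties an array to a litter, so the tests left litter out and treated the 8 arrays as independent.

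**Figure D1:**
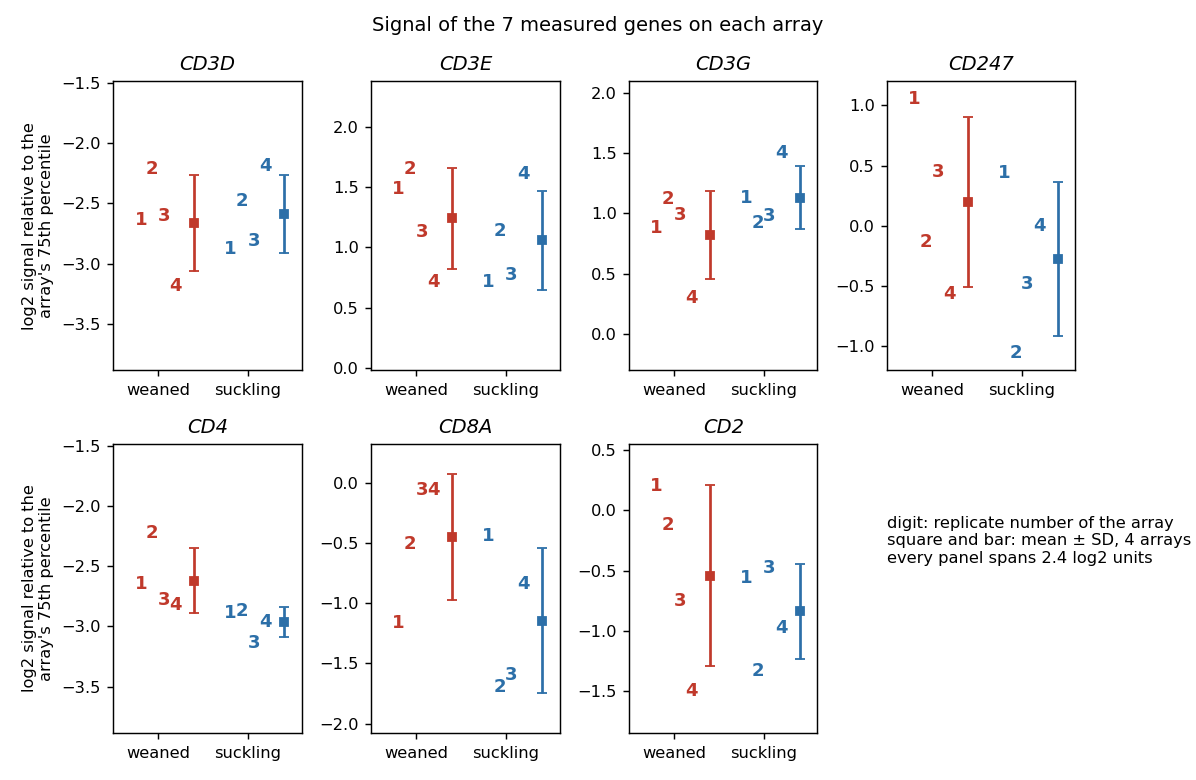
Log2 signal relative to the array's 75th percentile (vertical axis) of the 7 genes on 4 weaned and 4 suckling arrays. Each digit is the replicate number of an array, and the square with its bar is the mean ± SD of 4 arrays. The CD4 values of the weaned arrays all lie above those of the suckling arrays, and the groups overlap for the other 6 genes.

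CD3E encodes the epsilon chain, which pairs with both the gamma and the delta chain. Its log2 signal was 1.49, 1.65, 1.13 and 0.71 in weaned replicates 1 to 4, against 0.71, 1.14, 0.77 and 1.61 in suckling replicates 1 to 4. Weaned replicate 2 was highest and weaned replicate 4 lowest, so the weaned group spanned the whole range of the suckling group. The difference was 0.18 on the log2 scale (SE 0.27, 95% confidence interval -0.42 to 0.79, limma adjusted p = 0.815). The processed intensity of the probe ran between 402 and 1220 over the 8 arrays.

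CD3G encodes the gamma chain. Its log2 signal was 0.88, 1.12, 0.99 and 0.29 in weaned replicates 1 to 4, against 1.13, 0.92, 0.97 and 1.502 in suckling replicates 1 to 4. Suckling replicate 4 was the highest array and weaned replicate 4 the lowest, and the groups overlapped in between. The difference was -0.31 (SE 0.22, interval -0.80 to 0.18, limma adjusted p = 0.601). The dimmer of the 2 CD3G probes had a processed intensity of 20.9 to 49.2. Its difference was 0.11 (SE 0.22, limma adjusted p = 0.881), opposite in sign.

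CD3D encodes the delta chain. The log2 signal of CD3D was -2.64, -2.21, -2.61 and -3.18 in weaned replicates 1 to 4, against -2.88, -2.48, -2.81 and -2.19 in suckling replicates 1 to 4. As for CD3G, the highest array was suckling replicate 4 and the lowest weaned replicate 4. The difference was -0.07 (SE 0.24, interval -0.61 to 0.47, limma adjusted p = 0.929). At the dimmer CD3D probe, with a processed intensity of 25.6 to 70.8, the difference was 0.19 (limma adjusted p = 0.799). The mean over both probes gave 0.06, so no direction can be given for this chain.

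CD247 encodes the zeta chain, which natural killer cells also use for their own receptors. Its log2 signal was 1.06, -0.14, 0.45 and -0.56 in weaned replicates 1 to 4, against 0.44, -1.05, -0.49 and 0.00 in suckling replicates 1 to 4. Weaned replicates 1 and 3 stood above every suckling array, and suckling replicate 2 stood below every weaned array. The difference was 0.48 (SE 0.41, interval -0.44 to 1.40, limma adjusted p = 0.672). The dimmer CD247 probe had -0.87, -1.82, -1.39 and -2.15 in weaned replicates 1 to 4, against -1.47, -3.51, -2.55 and -1.78 in suckling replicates 1 to 4. Both probes were highest in weaned replicate 1 and lowest in suckling replicate 2. The difference at the dimmer probe was 0.77 (SE 0.45, limma adjusted p = 0.528).

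CD4 encodes the coreceptor of helper and regulatory T cells, which in humans monocytes and macrophages carry too. Its log2 signal was -2.65, -2.23, -2.78 and -2.82 in weaned replicates 1 to 4, against -2.89, -2.87, -3.14 and -2.96 in suckling replicates 1 to 4. CD4 was the 1 gene of 7 whose groups did not overlap. Of all tested probes without a missing value, 4.93% had every weaned array above every suckling array and 2.83% had every one below. The gap between the groups was narrow, with weaned replicate 4 at -2.82 next to suckling replicate 2 at -2.87. The means were -2.62 ± 0.27 in weaned and -2.97 ± 0.12 in suckling piglets (SD, n = 4 per group), a 1.27-fold higher signal. The difference of 0.35 did not pass the threshold (SE 0.17, interval -0.04 to 0.73, limma adjusted p = 0.454). The exact two-sided permutation p of this single value was 0.0286, the smallest that 70 arrangements of 8 arrays allow with litter left out. Groups that do not overlap always give this p, so it adds nothing to the lack of overlap. The probe was dim, with a processed intensity between 33.0 and 82.9, as was the brightest CD3D probe (33.3 to 83.6). Normexp background correction subtracts the local background around each spot, models what remains and adds an offset of 50. Such an offset by itself shrinks log2 differences of dim probes. Under normexp the CD4 difference was -0.06, or 0.11 with flagged local backgrounds replaced, with overlapping groups in both. The part of the offset in these values was not tested. The dimmer CD4 probe was well above background on 1 of 4 weaned arrays and on 0 of 4 suckling arrays, and it was not tested.

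CD8A encodes the alpha chain of CD8, and it had the largest difference among the 7 genes with all arrays in the fit, though not without weaned replicate 4, where those of CD247 and CD2 were larger. Its log2 signal was -1.17, -0.51, -0.06 and -0.06 in weaned replicates 1 to 4, against -0.44, -1.70, -1.59 and -0.84 in suckling replicates 1 to 4. Weaned replicates 3 and 4 stood above every suckling array, and suckling replicates 2 and 3 stood below every weaned array. Weaned replicate 1 and suckling replicate 1 crossed over, so the groups overlapped. The means were -0.45 ± 0.52 in weaned and -1.14 ± 0.60 in suckling piglets (SD, n = 4 per group), a 1.62-fold higher signal. The difference of 0.70 did not pass the threshold (SE 0.35, interval -0.09 to 1.48, limma adjusted p = 0.458), and its exact two-sided permutation p was 0.143.

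The dimmer CD8A probe, with a processed intensity between 18.9 and 56.7, gave a similar picture. It was not examined on its own under normexp. It had -3.41, -3.41, -2.78 and -3.65 in weaned replicates 1 to 4, against -3.23, -4.23, -4.35 and -4.17 in suckling replicates 1 to 4. Suckling replicate 1 lay among the weaned arrays, and the other 3 suckling arrays lay below all of them. The difference was 0.68 (SE 0.29, interval 0.03 to 1.33, limma unadjusted p = 0.041, adjusted p = 0.383), and 12.3% of all tested probes had an unadjusted p under 0.05. Suckling replicate 1, the array that crossed over at both probes, also had the lowest enterocyte score of the 8 arrays, at -1.23. This score is the median over 9 enterocyte markers of the log2 signal minus the gene's mean. It was -0.41 to 0.16 in the weaned arrays and 0.23 to 0.91 in the other suckling arrays. Weaned replicate 1, the lowest weaned array for CD8A at the brightest probe, had the lowest weaned score, -0.41. The part of these scores in the CD8A values was not tested. The CD8A difference at the brightest probe was 0.51 to 0.94 with 1 array left out, highest without the arrays that crossed over (0.94 without weaned replicate 1 and 0.93 without suckling replicate 1) and lowest without suckling replicates 2 and 3 (0.51 and 0.55), and the limma adjusted p was 0.148 to 0.683.

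Whether CD4 and CD8A moved unequally was examined through the log2 ratio of CD4 over CD8A within each array. The ratio was -1.48, -1.72, -2.72 and -2.76 in weaned replicates 1 to 4, against -2.45, -1.17, -1.55 and -2.12 in suckling replicates 1 to 4. Suckling replicate 2 stood above every weaned array and weaned replicates 3 and 4 stood below every suckling array, with the other arrays overlapping. Its level depends on the 2 probes, so its shift alone carries information. That shift was -0.35 (exact two-sided permutation p = 0.486), and with the dimmer CD8A probe it was -0.33 (exact two-sided permutation p = 0.371). The ratios of CD8B and of PRF1 to CD8A could not be formed without their probes.

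CD2 encodes an adhesion receptor of T and natural killer cells, which binds CD58 or CD48 on other cells. The CD2 signal was 0.20, -0.12, -0.75 and -1.498 in weaned replicates 1 to 4, against -0.56, -1.33, -0.48 and -0.98 in suckling replicates 1 to 4. Weaned replicates 1 and 2 stood above every suckling array, and weaned replicate 4 stood below every one. The means were -0.54 ± 0.75 in weaned and -0.84 ± 0.39 in suckling piglets (SD, n = 4 per group). The difference was 0.30 (SE 0.37, interval -0.53 to 1.12, limma adjusted p = 0.782). The ligand genes CD48 and CD58 had differences of 0.19 and -0.03 (limma adjusted p = 0.674 and 0.9753).

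**Figure D2:**
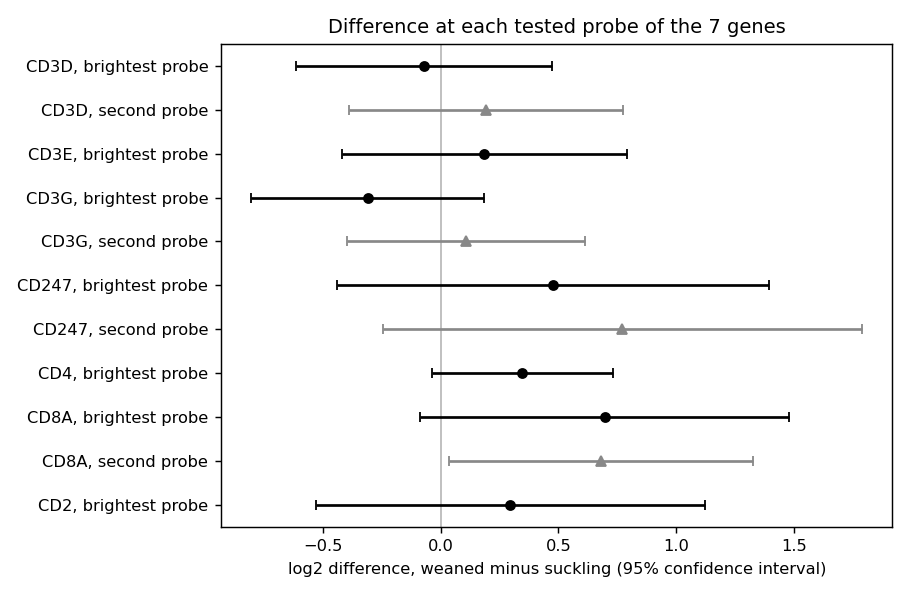
Log2 difference, weaned minus suckling (horizontal axis), at the brightest probe of each gene (black circles) and at the dimmer probe where it was tested (grey triangles), with 95% confidence intervals. All intervals drawn span 0 except that of the dimmer CD8A probe, which runs over 0.03 to 1.33.

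Of the 7 genes, 0 passed the threshold by limma and 0 had an unadjusted p under 0.05 at the brightest probe, with adjusted p-values between 0.454 and 0.929. Over all tested probes 54 of 30554, or 0.177%, passed. A higher mean in weaned piglets was seen for 5 of the 7 genes, where 54.9% of all tested probes had one. The median difference of the 7 genes was 0.30, with a range of -0.31 to 0.70, beside a median of 0.04 over all tested probes. The standard errors ran between 0.17 and 0.41, and all 7 confidence intervals spanned 0. Of the 4 genes with 2 tested probes, the probes had the same sign of difference for CD8A and CD247 and opposite signs for CD3D and CD3G.

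The genes did not keep one order of arrays. Weaned replicate 4 was the lowest array for CD2, CD3D, CD3E and CD3G, yet its CD8A signal was 0.73 above that gene's mean over the 8 arrays. Weaned replicate 1 was the highest array for CD2 and CD247, by 0.89 and 1.09 above their means, while CD8A stood at -0.37 there. Suckling replicate 4 was highest for CD3D and CD3G, at 0.44 and 0.53 above their means, with CD4 and CD2 at -0.17 and -0.29. Suckling replicate 2 was lowest for CD247 and CD8A, at -1.02 and -0.90, with CD3D at 0.15.

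The mean profile of the 4 receptor chains, each centred on its mean over 8 arrays, was 0.33, 0.24, 0.12 and -0.55 in weaned replicates 1 to 4, against -0.02, -0.23, -0.25 and 0.36 in suckling replicates 1 to 4. The group means of the profile were 0.04 ± 0.40 and -0.04 ± 0.29 (weaned and suckling, SD, n = 4 per group), so the groups lay far closer together than the arrays within either. Single arrays moved these differences in both directions, with 0 genes past the threshold by limma in any such fit. The CD2 difference was 0.61 without weaned replicate 4, and 0.05, 0.16 and 0.13 without weaned replicate 1, weaned replicate 2 and suckling replicate 2. That of CD247 was 0.73 without weaned replicate 4, and 0.19 and 0.22 without weaned replicate 1 and suckling replicate 2. The difference of CD3E was 0.36 and 0.37 without weaned replicate 4 and suckling replicate 4, and between 0.05 and 0.10 without weaned replicate 1, weaned replicate 2, suckling replicate 1 or suckling replicate 3. CD3G had -0.13 and -0.19 without weaned replicate 4 and suckling replicate 4, and CD3D had 0.10 and 0.06 without these arrays. CD4 had 0.22 without weaned replicate 2.

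**Figure D3:**
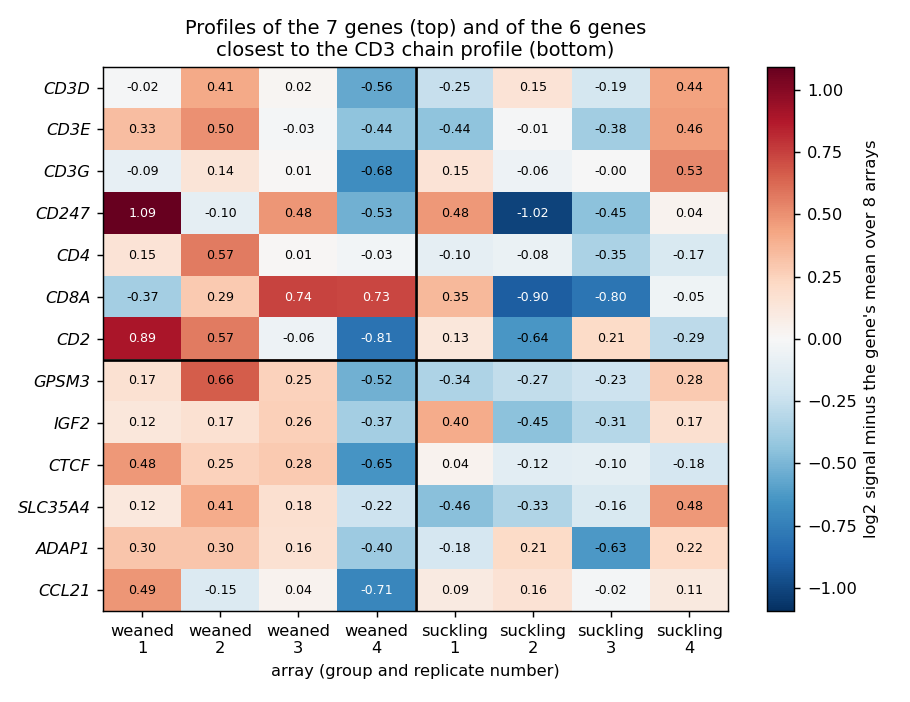
Log2 signal minus the gene's mean over the 8 arrays (colour and printed value) for the 7 genes, above the line, and for the 6 other genes closest to the mean profile of the receptor chains. Columns are the 4 weaned arrays, left, and the 4 suckling arrays. Weaned replicate 4 is low for CD3D, CD3E, CD3G and CD2, and high for CD8A.

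The genes outside the list with the profile most like that of the 4 receptor chains were sought by the root mean square difference over the 8 arrays. The search covered 1433 named genes that varied at least as much as the chain profile, whose SD over the arrays was 0.32, and the median distance of these genes was 0.56. GPSM3, a regulator of G protein signalling, was closest at 0.21. IGF2, an insulin-like growth factor, followed at 0.21, CTCF, a chromatin insulator protein, at 0.22, and SLC35A4, a member of a nucleotide sugar transporter family, at 0.23. ADAP1, a GTPase-activating protein, stood at 0.23, and CCL21, the chemokine that draws T cells and dendritic cells through CCR7, at 0.25. These distances are a description of 8 arrays.

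Downstream of the receptor, 5 of 23 listed signalling genes had a probe, and 0 passed the threshold by limma, with 0 at an unadjusted p under 0.05. They lay close to 0, with 4 of 5 higher in weaned piglets and a median of 0.07. Beside the counts of this list and of each list below, 54.9% of all tested probes were higher in weaned piglets. An unadjusted p under 0.05 by limma was seen for 12.3% of all tested probes. LCK, the kinase that CD4 and CD8 carry, had 0.07, 0.04, -0.01 and 0.05 in weaned replicates 1 to 4, against -0.06, -0.30, -0.67 and 0.23 in suckling replicates 1 to 4. The weaned values of LCK sat in a narrow band inside the suckling range, and the difference was 0.24 (SE 0.20, limma adjusted p = 0.66). BCL10, an adaptor between the receptor and NF-kappaB, and NFATC1, a transcription factor switched on by calcium, had differences of -0.18 and 0.06.

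Among costimulatory and inhibitory receptors and their ligands, 7 of 10 tested genes were higher in weaned piglets, with a median of 0.35, and 0 passed by limma (2 had an unadjusted p under 0.05). CD274, which encodes the ligand PD-L1, had -0.98, -1.46, -2.70 and -1.38 in weaned replicates 1 to 4, against -2.59, -4.27, -2.72 and -3.88 in suckling replicates 1 to 4. Its difference was 1.74 (SE 0.47, limma adjusted p = 0.218). The CD274 probe was dim. Under normexp, with its offset, the CD274 difference was 0.42, or 0.85 with flagged local backgrounds replaced (limma adjusted p between 0.0686 and 1.00 over all alternatives). CD96, a receptor of T and natural killer cells, had a difference of 0.76 (SE 0.23, limma adjusted p = 0.264), with 3 weaned arrays above every suckling array. CD86, a ligand of CD28 and CTLA4, had a difference of 0.50 (limma adjusted p = 0.577).

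Of the cytotoxic granule and natural killer cell genes, 9 of 14 were higher in weaned piglets, with a median of 0.26, and 0 passed by limma (3 had an unadjusted p under 0.05). The shares over all tested probes were 54.9% higher and 12.3% under 0.05. GZMB, a granule protease that enters target cells through perforin, had 5.56, 5.19, 5.38 and 5.41 in weaned replicates 1 to 4, against 4.78, 5.10, 3.62 and 3.88 in suckling replicates 1 to 4. Its groups did not overlap, as for 4.93% of all tested probes without a missing value in this direction. The GZMB difference was 1.04 (SE 0.32, limma adjusted p = 0.259). GZMA, another granule protease, and NKG7, a granule membrane protein, had differences of 0.72 and 0.66 (limma adjusted p = 0.371 and 0.367). The order of arrays for GZMA was not that of the CD3 chains, since weaned replicates 3 and 4 were its highest arrays, at 2.12 and 1.89, as they were for CD8A. Other genes of the list did not share this order. Weaned replicate 4 was the lowest weaned array for NKG7, GZMH and KLRK1, at 0.15, -1.15 and -1.73.

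T helper factors and cytokines had 11 of 17 tested genes higher in weaned piglets, a median of 0.16, and 0 past the threshold by limma (1 at an unadjusted p under 0.05). TNF, an inflammatory cytokine also made by macrophages, had -0.11 to 0.59 in weaned and -1.12 to -0.48 in suckling arrays. These groups did not overlap, as for 4.93% of all tested probes without a missing value in this direction. The TNF difference was 0.92 (SE 0.21, limma adjusted p = 0.151), and it passed with the deposited log2 table, at 1.26 (limma adjusted p = 0.0354). FOXP3, the factor of regulatory T cells, and GATA3, that of type 2 helper cells, had differences of 0.50 and -0.33 (limma adjusted p = 0.454 and 0.527). The FOXP3 probe was dim, with a processed intensity between 7.07 and 24.9. The FOXP3 difference was -0.10 under planned normexp and above 0 in 19 of the 20 alternatives in which it was tested. IL13, IL17A and IL21 were not well above background on any array.

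Growth cytokines and their receptors had 9 of 10 tested genes higher in weaned piglets, a median of 0.14, and 0 past the threshold by limma (1 at an unadjusted p under 0.05). IL18, an inducer of interferon gamma, had a difference of 0.67 (SE 0.26, limma adjusted p = 0.362). The receptor chains IL18R1 and IL12RB1 had 0.25 and 0.17. IL2RA, IL12RB2 and IL23A were not well above background on any array.

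Gut homing and trafficking genes were split, with 12 of 25 higher in weaned piglets, a median of -0.00016, and 0 past the threshold by limma (2 at an unadjusted p under 0.05). CXCR4, a chemokine receptor of lymphocytes and other leukocytes, had -1.83, -1.87, -2.10 and -2.17 in weaned replicates 1 to 4, against -0.73, -1.26, -1.004 and -1.44 in suckling replicates 1 to 4. Every weaned array lay below every suckling array, as for 2.83% of all tested probes without a missing value, and the difference was -0.89 (SE 0.19, limma adjusted p = 0.139). ITGB2, an integrin chain of all leukocytes, had its groups apart in the other direction, as for 4.93% of all tested probes without a missing value. The ITGB2 difference was 0.78 (SE 0.20, limma adjusted p = 0.196). CXCL10, an interferon-induced chemokine, had a difference of 1.29 (SE 0.64, limma adjusted p = 0.455), and CCR9, the receptor that guides T cells to the small intestine, -0.23 (limma adjusted p = 0.785).

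**Figure D4:**
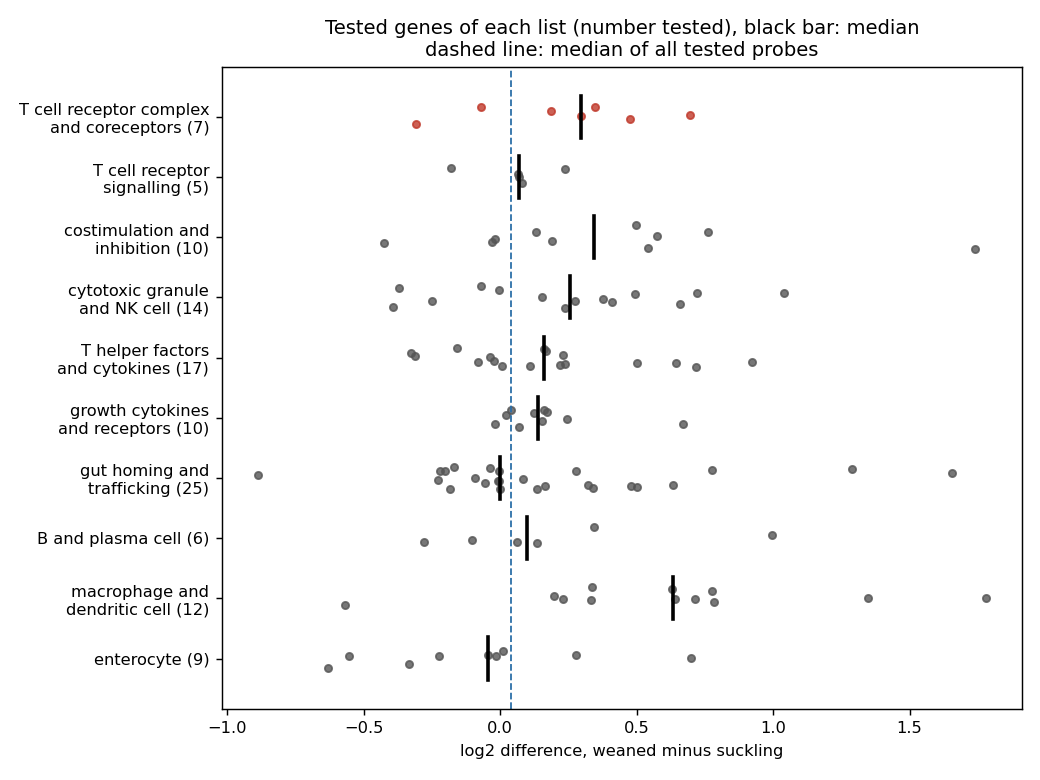
Log2 difference, weaned minus suckling (horizontal axis), of the 7 genes (red) and of the tested genes of 9 other lists (grey), with the list median as a black bar and the median of all tested probes, 0.04, as a dashed line. The medians run from -0.04 for enterocyte markers to 0.64 for macrophage and dendritic cell markers, with 0.30 for the T cell receptor complex and coreceptors.

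Under the planned normexp correction, list medians were below 0 for receptor signalling (-0.12), T helper genes (-0.08), growth cytokines (-0.07) and B cell markers (-0.08). The median of all probes was -0.10 there, and single spots had a local background of 65246 (suckling replicate 4) and 17305 (weaned replicate 1). Over all 21 alternatives, the T helper and the growth cytokine median were each above 0 in 20. The receptor signalling median was above 0 in 19 and the B cell median in 17.

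Markers of other cell types in the wall were measured beside these genes. Of the macrophage and dendritic cell markers, 11 of 12 were higher in weaned piglets, with a median of 0.64 and 0 past the threshold by limma (5 at an unadjusted p under 0.05). Their summed signal was 342 to 459 times the 75th percentile in weaned and 125 to 264 in suckling arrays, a gap set by LYZ (lysozyme) alone, since the other 11 genes summed to 114 to 162 in weaned and 85.7 to 137 in suckling arrays. The list score was 0.02 to 0.69 in weaned and -0.44 to 0.19 in suckling arrays. FCER1G, SPI1 and LYZ had the smallest p-values, with differences of 0.78, 0.72 and 1.78 (limma adjusted p = 0.265, 0.297 and 0.297). The SPI1 probe was dim, with a processed intensity between 11.4 and 45.6. The SPI1 difference was -0.07 under planned normexp and above 0 in 20 of 21 alternatives. VSIG4, the 1 gene of this list that was lower in weaned piglets, was also among the 5. Its difference was -0.57 (limma unadjusted p = 0.020, adjusted p = 0.316). The part of these markers in the CD4 values was not tested. B and plasma cell markers had 4 of 6 higher in weaned piglets, a median of 0.10 and 0 past the threshold by limma (1 at an unadjusted p under 0.05). Nearly all of their summed signal was XBP1, which secretory cells of other kinds use too, and the other 5 genes summed to 1.61 to 2.54 in weaned and 1.70 to 2.59 in suckling arrays. CD72 had a difference of 1.00, CD79A 0.35 and PRDM1 -0.28 (limma adjusted p between 0.235 and 0.682).

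All 9 measured enterocyte markers, which define the labelled tissue, were well above background on every array, with a summed signal of 1490 to 2429 in weaned and 1004 to 3637 in suckling arrays. Of these, 3 were higher in weaned piglets, the median was -0.04, and 0 passed by limma (1 had an unadjusted p under 0.05). KRT8, a keratin, had a difference of 0.70, DPP4, a brush border peptidase, 0.28, and APOA4, an apolipoprotein, -0.56 (limma adjusted p = 0.218, 0.791 and 0.69). Both the highest and the lowest enterocyte scores were in suckling arrays, 0.91 in replicate 4 and -1.23 in replicate 1. The profile of the receptor chains was 0.36 in suckling replicate 4 and -0.02 in suckling replicate 1, and the part of the epithelium in it was not tested.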

How the data were processed

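Spot intensity was extracted with Agilent Feature Extraction 10.7, per the submitters' processing notes. Each array's deposited file holds processed intensity, which the software had background-subtracted, raw spot and local background intensity, and quality flags. The authors' deposited series table holds log2 values with one distribution in all columns, and how they were scaled and centred is not given in the sources used here.

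From the processed intensity, control spots were dropped, outlier spots set to missing, and spots of one of 43603 probes averaged on the log2 scale, minus the array's 75th percentile. Probes well above background on at least 4 arrays, with 3 values per group, were tested (limma 3.58.1, R 4.3.3, group as the sole term, two-sided). RefSeq accessions were named, without versions, through the RefSeq genes of Sscrofa11.1, for names alone, which gave 6924 probes a symbol. The limma step was tested on simulated data.

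The genes and lists were chosen with earlier results of these data known. All 7 genes are named, then the 3 genes with the smallest p of each list, because none passed, and the 6 genes with the closest profile. A few more were named after their values were seen: CD48, CD58, CCR9, XBP1, VSIG4, GZMH, KLRK1 and genes not above background. Alternatives covered scaling, background, filters, flags, variance model, array weights, block, deposited table, probe choice and each array left out. The number of arrays limits the precision.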

Additional observations from a re-analysis of the deposited data

Results flagged for a closer look

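In 7 of 114 groups of 4 values, 1 array lay far from the other 3, measured as its gap to the nearest array divided by the group's range. Chance flags about 1 in 20 such groups. Suckling replicate 1 was high at the dimmer CD8A probe (0.845), and low for APOA4 (0.856) and DPP4 (0.939). Suckling replicate 4 was high for CD96 (0.870). Weaned replicate 2 was high for FOXP3 (0.875), and weaned replicate 1 was high for CD79A (0.977). The 75th percentile of intensity was also low in weaned replicate 1 beside the other weaned arrays (0.925).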

How the results depend on the processing

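Under 21 alternatives, 20 of them planned, 0 of the 7 genes passed by limma. Between 4 and 6 of the 7 had a higher mean in weaned piglets, and their median was 0.07 to 0.44. The CD4 over CD8A shift was -0.58 to -0.13 (exact two-sided permutation p between 0.257 and 0.8286). The 54 probes past the threshold became 9 to 553 with 1 array left out (553 without suckling replicate 1, and 40 or fewer without each other array), 328 with array weights, and 0 under planned normexp and under the replicate block. Same-numbered arrays deviated together at r = 0.37, 0.0076, 0.19 and -0.018, so the numbers were not taken as pairs. With the block 0 of the 7 genes passed by limma, as without it, and neither did any other probe. Not every array was closest to its own number. Planned normexp gave list medians of -0.12 (receptor signalling), 0.020 (cytotoxic), -0.079 (T helper), -0.067 (growth cytokines) and -0.077 (B cell). It turned CD4 (-0.064), FOXP3 (-0.10), CD79A (-0.017), SPI1 (-0.072), IL18R1 (-0.094), IL12RB1 (-0.059), NFATC1 (-0.18), CTCF (-0.052) and ADAP1 (-0.15), while the median of all probes was -0.10. In that run single spots had a local background of 65246 (suckling replicate 4) and 17305 (weaned replicate 1). With flagged backgrounds replaced, a choice made after seeing the data, NFATC1 and ADAP1 were -0.070 and -0.026 and the macrophage median was 0.30. Array weights gave 0.26 for the B cell median and -0.0023 for DPP4. With the deposited log2 values TNF passed, as 1 gene of the T helper list, at 1.26. The mean over probes turned CD3D to 0.061. With 1 array left out, CD3D was -0.22 to 0.10, DPP4 -0.11 to 0.43, IGF2 -0.042 to 0.24 and CCL21 -0.36 to 0.041, the B cell median -0.035 to 0.28 and the cytotoxic median 0.10 to 0.31. The sign turned without weaned replicate 4 (CD3D, CCL21), suckling replicate 4 (CD3D), suckling replicate 1 (DPP4) and suckling replicate 2 (IGF2, the B cell median), and the B cell median also turned without weaned replicate 2. The cause of these changes was not tested.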
